A study of Mus musculus with 4 samples.

Results

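A set of 10 marker genes of adipose fibroblasts and adipocyte progenitors were followed in the perivascular adipose tissue (PVAT) of the injured mouse femoral artery. The genes were chosen by symbol, namely *Pdgfra*, *Thy1*, *Ly6a*, *Cd34*, *Pi16*, *Dpp4*, *Cd55*, *Scara5*, *Cytl1* and *Zfp423*, and all 10 were among the 12661 genes analysed. RNA was taken from the tissue outside the artery of wild type C57BL/6 female mice, 11 weeks old and ovariectomized in both groups, 48 h after a 0.38 mm wire was passed through the vessel (injury, 2 libraries) or after a sham operation (sham, 2 libraries). The labels number the replicates but do not say whether each is 1 mouse, so the p-values measure the spread between these libraries, which may be partly technical. The tissue was whole, and a lower value can therefore mean fewer cells of a type or less RNA per cell, which cannot be told apart.

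Fat depots hold, beside adipocytes, a stroma of fibroblast-like cells from which new adipocytes arise. These cells carry the platelet-derived growth factor receptor PDGFRα together with CD34, SCA-1 and THY1. A population in the connective tissue between fat lobules and around vessels, marked by PI16, DPP4 and CD55, is held to lie upstream of committed preadipocytes, and the zinc finger protein ZFP423 is a regulator of the step towards the adipocyte.

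The values deposited for each gene and library are signed numbers on a log-like scale whose base is not stated. Whether they were centred, and over which samples, is not stated either. For *Pdgfra* all 4 were below 0, so 0 is not the mean of each gene over these libraries. The values ran from -2.27 to 6.45 over all genes, and the sequencing depth behind them is unknown. Their relation to abundance is not stated, so levels were compared between libraries but not between genes. Differences below are injury minus sham in these deposited units. They were tested with limma, with Benjamini-Hochberg adjustment over all 12661 genes and a threshold of 0.05. For any 1 gene, exact permutation of 2 against 2 libraries has p = 0.333 as its smallest value, so the calls rest on the variance that limma shares across genes.

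Of the 10 markers, 3 fell after injury, *Cytl1*, *Cd55* and *Cd34*, beside 7.43% of all genes called in either direction. None was called higher by limma, and none of those with a positive difference had an unadjusted p-value under 0.05 (0 genes). Over all genes, 3.67% were called lower and 3.76% higher. An unadjusted p-value under 0.05 from limma was found for 4 of the 10 markers and for 29.5% of all genes, and at an adjusted p-value under 0.1 the number called lower was 4, beside 9.09% of all genes. The median difference of the 10 markers was -0.63, beside 0.0085 over all genes, and 9 of the 10 had a lower mean after injury, beside 49.1% of all genes. That median was -0.20 without sham replicate 1, -0.79 without sham replicate 2, -0.35 without injury replicate 1 and -0.90 without injury replicate 2. Both injury libraries lay below both sham libraries for 5 markers (*Cytl1*, *Cd55*, *Cd34*, *Zfp423* and *Thy1*), as they did for 30.3% of all genes. They lay above for 1 (*Pdgfra*), as for 31.6% of all genes, and the groups overlapped for the other 4. Groups without overlap in either direction made up 61.9% of all genes. Single differences ran from -2.61 for *Cytl1* to 0.41 for *Pdgfra*.

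**Figure D1:**
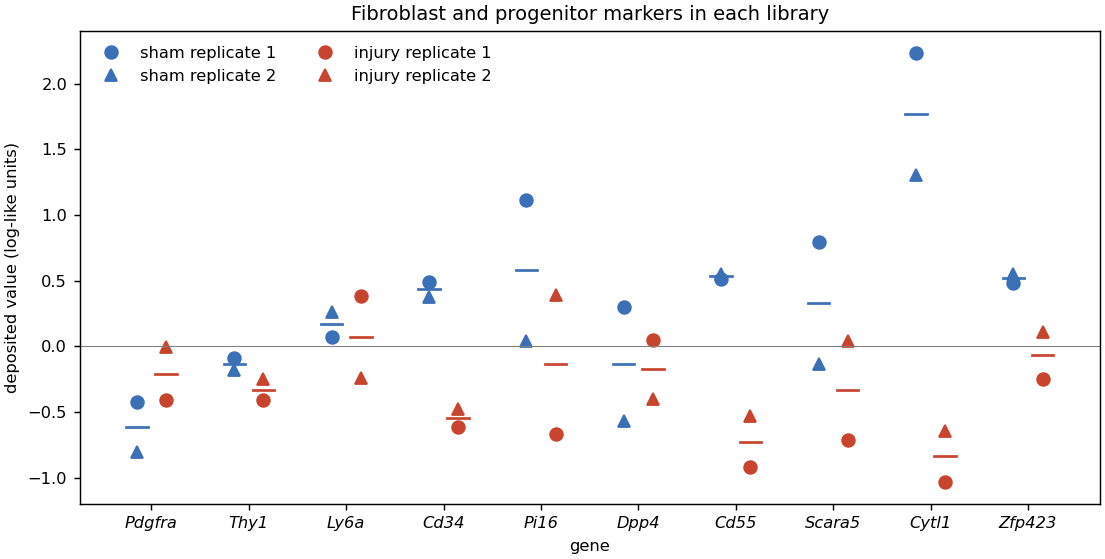
Deposited value (log-like units, vertical axis) of each of the 10 markers (horizontal axis) in the 2 sham libraries (blue) and the 2 injury libraries (red), circles for replicate 1, triangles for replicate 2 and short lines for the group means. *Cytl1*, *Cd55* and *Cd34* have wide gaps between the groups, while the groups overlap for *Ly6a*, *Pi16*, *Dpp4* and *Scara5*.

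The 3 genes that fell are shown by the DNA upstream of their transcription start, since they are the members that were called. The sequences are the 250 bases before the RefSeq start, 5′ to 3′ on the strand of the gene. They were taken from the RefSeq promoter table (GRCm38.p6), which held 7 of the 10 markers, and were located in mm9 by exact match, where each ends at the base before the GENCODE start of the gene. Capitals mark the GC box, GGGCGG on either strand. The *Cytl1* window is at chr5:38126508-38126757 on the plus strand.
Cytl1: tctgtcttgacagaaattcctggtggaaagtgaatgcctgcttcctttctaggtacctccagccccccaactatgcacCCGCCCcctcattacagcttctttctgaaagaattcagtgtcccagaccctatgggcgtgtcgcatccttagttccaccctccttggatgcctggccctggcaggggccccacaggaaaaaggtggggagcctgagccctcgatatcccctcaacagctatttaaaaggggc
The *Cd34* window is at chr1:196764765-196765014 on the plus strand.
Cd34: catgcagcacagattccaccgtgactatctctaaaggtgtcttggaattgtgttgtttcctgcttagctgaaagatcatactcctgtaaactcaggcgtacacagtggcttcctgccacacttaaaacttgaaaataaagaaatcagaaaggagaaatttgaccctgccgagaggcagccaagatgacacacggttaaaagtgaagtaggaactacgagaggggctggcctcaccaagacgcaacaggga
The *Cd55* window is at chr1:132359322-132359571 on the minus strand.
Cd55: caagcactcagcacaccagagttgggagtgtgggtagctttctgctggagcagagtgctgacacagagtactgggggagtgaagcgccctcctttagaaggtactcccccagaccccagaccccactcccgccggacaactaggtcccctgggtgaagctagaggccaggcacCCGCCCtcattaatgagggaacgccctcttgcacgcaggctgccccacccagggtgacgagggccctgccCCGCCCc
The windows differed in base composition. GC content was 54.8% for *Cytl1*, 46.4% for *Cd34* and 64.0% for *Cd55*, beside a median of 52.4% over 32851 RefSeq promoters. A GC box was found once for *Cytl1* and at 2 places for *Cd55*, and 32.7% of all promoter windows of this length hold one, among them both windows listed for *Zfp423*, which was not called. The letters TATAAA (12.4% of all windows), CCAAT (33.8%), TGANTCA (AP-1, 6.75%), TTCNNNGAA (STAT, 7.02%), CACGTG (E-box, 6.02%) and the EBF palindrome (0.779%), read on both strands, were not in these 3 windows, so no motif overlapped a GC box there. The motifs were chosen after the values were seen. The 3 windows therefore had no searched motif in common.

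Of the surface molecules that mark the whole stromal population, *Cd34* was called lower and *Pdgfra*, *Thy1* and *Ly6a* were not called, and whether their changes differ from that of *Cd34* was not tested. *Pdgfra* (mm9 chromosome 5, 75548316 to 75594229, plus strand) encodes the receptor for PDGF ligands by which adipocyte progenitors are commonly isolated. Its values were -0.42 and -0.81 in the sham libraries and -0.41 and -0.003 in the injury libraries. The injury libraries lay above the sham libraries, but injury replicate 1 exceeded sham replicate 1 by a small step only. The difference was 0.41 (95% interval -0.13 to 0.94, adjusted p = 0.271 from limma). With 1 library left out it ran from 0.20 to 0.61, with the low values when sham replicate 2 (0.21) or injury replicate 2 (0.20) was dropped.

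*Cd34* (chromosome 1, 196765015 to 196787486, plus strand) encodes a sialomucin found on stromal progenitors, on endothelium and on blood progenitors. It was at 0.49 and 0.38 in the sham libraries and at -0.61 and -0.47 in the injury libraries. Both injury libraries were far below both sham libraries, and replicates of a group differed by 0.12 and -0.14. The difference was -0.98 (standard error 0.14, 95% interval -1.33 to -0.62, adjusted p = 0.0294 from limma). Without sham replicate 1, sham replicate 2 or injury replicate 1 the call was lost (adjusted p = 0.189, 0.122 and 0.0650 from limma), with differences between -1.04 and -0.91.

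*Thy1* (chromosome 9, 43851467 to 43856662, plus strand) encodes a GPI-anchored glycoprotein of fibroblasts, T lymphocytes and neurons. Its values were -0.09 and -0.18 after sham operation and -0.41 and -0.25 after injury. The groups did not overlap, but the difference of -0.20 (95% interval -0.55 to 0.16) did not pass the test (adjusted p = 0.411 from limma). With 1 library left out it ran from -0.27 to -0.12, the latter when injury replicate 1 was dropped. *Ly6a* (chromosome 15, 74825308 to 74828064, minus strand) encodes SCA-1, another GPI-anchored protein. It was at 0.07 and 0.26 in the sham libraries and at 0.38 and -0.24 in the injury libraries, which lay on either side of both sham libraries. Its difference was -0.10 (95% interval -0.69 to 0.50, adjusted p = 0.820 from limma), and it turned to 0.22 without injury replicate 2. Of the 770 stretches of 50 bases in its transcript, 4.42% also occur in transcripts of *Ly6c2* or *Ly6i*. That share does not measure how uncertain the value of *Ly6a* is. *Ly6c2* had values of -2.04 and -0.74 after sham operation and 1.85 and 0.08 after injury, and *Ly6i* had -0.78 and -0.74 against 1.86 and 0.10. In all 3 genes injury replicate 1 was the highest library, and the part of shared reads in the *Ly6a* value was not tested.

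Of the 3 markers of the interstitial population, *Cd55* was called, while the intervals of *Pi16* and *Dpp4* included 0, and differences between the 3 genes were not tested. *Cd55* (chromosome 1, 132335604 to 132359321, minus strand) encodes decay-accelerating factor, which protects cells from their own complement. It was at 0.52 and 0.55 after sham operation and at -0.92 and -0.53 after injury. The sham libraries were 0.04 apart and both injury libraries lay more than 1 unit below them. The difference was -1.26 (standard error 0.18, 95% interval -1.70 to -0.82, adjusted p = 0.0291 from limma). Without sham replicate 1, sham replicate 2 or injury replicate 1 *Cd55* lost its call (adjusted p = 0.176, 0.124 and 0.0503 from limma), with differences from -1.28 to -1.07. Of its 50-base stretches, 9.62% also occur in *Daf2*, a close copy that was not analysed here.

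*Pi16* (chromosome 17, 29455822 to 29466358, plus strand) encodes peptidase inhibitor 16, a marker of fibroblasts of the vascular adventitia in many organs. Its values were 1.12 and 0.04 in the sham libraries and -0.66 and 0.39 in the injury libraries. Sham replicate 1 was high and injury replicate 1 was low, while the other libraries were in between with injury above sham. The difference of -0.71 had a 95% interval from -1.90 to 0.47 (adjusted p = 0.372 from limma). Depending on which library was left out, it was between -1.25 and -0.17. *Dpp4* (chromosome 2, 62168130 to 62250288, minus strand) encodes a cell surface protease that cleaves peptide hormones and chemokines. It was at 0.30 and -0.56 after sham operation and at 0.05 and -0.40 after injury, and both injury libraries lay between the sham libraries. Its difference of -0.04 (95% interval -0.85 to 0.76, adjusted p = 0.940 from limma) became 0.39 without sham replicate 1 and 0.18 without injury replicate 2.

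Among the remaining markers, *Cytl1* had the widest difference of the 10. *Cytl1* (chromosome 5, 38126758 to 38131059, plus strand) encodes a small secreted protein, cytokine-like 1, known from CD34+ blood progenitors and cartilage. Its values were 2.24 and 1.30 after sham operation and -1.03 and -0.64 after injury. Both injury libraries lay far below both sham libraries, although the sham libraries were 0.93 apart. The difference was -2.61 (standard error 0.33, 95% interval -3.44 to -1.78, adjusted p = 0.0285 from limma), and only 3 of the 12661 genes had a lower one, since it ranked 4 from the lowest. Without sham replicate 1, sham replicate 2 or injury replicate 1 the adjusted p was 0.176, 0.113 and 0.0532 from limma, with differences from -3.07 to -2.14. The genes whose values lay closest to those of *Cytl1*, by Euclidean distance over the 4 libraries, were *Adamts8* (distance 0.27), *Nov* (0.58) and *Wfdc1* (0.60), out of 12660 genes compared. *Adamts8*, an extracellular protease gene, was at 2.13, 1.24, -1.23 and -0.78 in sham replicates 1 and 2 and injury replicates 1 and 2. All 10 mural cell genes analysed had lower means after injury, with differences from -2.52 (*Myh11*) to -0.22 (*Abcc9*). *Myh11* was at 2.08 and 1.21 after sham operation and at -1.58 and -0.16 after injury. The part of mural cells in the fall of *Cytl1* was not tested. For *Pdgfra* the nearest genes were *Rmrp* (0.15), *Ear2* (0.25) and *Rpl38* (0.29).

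*Scara5* (chromosome 14, 66285240 to 66383663, plus strand) encodes a scavenger receptor that binds ferritin. It was at 0.80 and -0.13 in the sham libraries and at -0.72 and 0.05 in the injury libraries, and its groups overlapped. The difference was -0.67 (95% interval -1.63 to 0.30, adjusted p = 0.310 from limma), and with 1 library left out it was -0.20 or -0.29 when sham replicate 1 or injury replicate 1 was dropped and -1.13 or -1.05 when sham replicate 2 or injury replicate 2 was. *Zfp423* (chromosome 8, 90185709 to 90483494, minus strand) was at 0.49 and 0.55 after sham operation and at -0.24 and 0.11 after injury. Both injury libraries lay below both sham libraries. The difference of -0.58 (standard error 0.17, 95% interval -1.01 to -0.16) had an adjusted p of 0.0934 from limma and so did not pass the threshold over all genes. Without injury replicate 2 it was -0.76 and did pass (adjusted p = 0.0430 from limma), and without the other libraries in turn the adjusted p was up to 0.337 from limma.

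**Figure D2:**
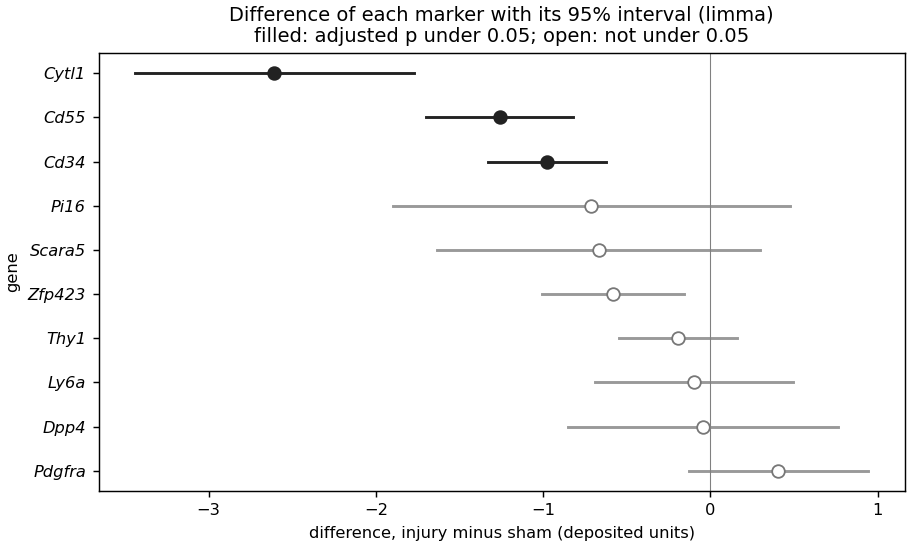
Difference between injury and sham means (deposited units, horizontal axis) of each marker (vertical axis, ordered by difference), with the 95% interval from limma as a line, filled points for adjusted p-values under 0.05 and open points otherwise. The intervals of *Cytl1*, *Cd55*, *Cd34* and *Zfp423* lie below 0, of which the first 3 were called, and the other 6 intervals include 0.

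The spread between libraries of one group was uneven among the markers. In the sham group, replicate 1 exceeded replicate 2 by 1.08 for *Pi16*, 0.93 for *Cytl1*, 0.93 for *Scara5* and 0.87 for *Dpp4*, gaps larger than those of 99.3%, 98.8%, 98.8% and 98.4% of all genes. For *Cd55*, *Zfp423*, *Thy1* and *Cd34* the sham libraries were within 0.12 of each other, while the median gap over all genes was 0.15. In the injury group, replicate 1 was below replicate 2 in 8 of the 10 markers, beside 51.1% of all genes, by 1.06 for *Pi16* and 0.76 for *Scara5*. For *Ly6a* and *Dpp4* it was above, by 0.62 and 0.45. Macrophage genes had the opposite order within the injury group, with replicate 1 above replicate 2 in 11 of 12 and below it in 1. The part of this unevenness in the wide intervals of *Pi16*, *Dpp4* and *Scara5* was not tested beyond the values without each library.

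Markers were also set against each other inside each library, where a factor common to both genes cancels on a log-like scale. These pairs were chosen with the single values known and are a description. The value of *Cd34* minus that of *Pdgfra* was 0.91 and 1.18 in the sham libraries and -0.20 and -0.47 in the injury libraries. *Cd55* minus *Pdgfra* was 0.94 and 1.36 after sham operation and -0.51 and -0.53 after injury. For *Zfp423* minus *Pdgfra* the values were 0.91 and 1.36 against 0.17 and 0.11. In each of these pairs the groups were apart, as they were for *Cd34* minus *Thy1*, with 0.58 and 0.55 against -0.21 and -0.23. *Pi16* minus *Dpp4* was 0.81 and 0.60 after sham operation and -0.71 and 0.79 after injury, which overlapped.

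*Cd34* is shared with endothelium, and endothelial genes were lower too. *Cd34* minus *Pecam1*, the gene of the endothelial adhesion molecule CD31, was -0.36 and -0.37 in the sham libraries and -0.32 and -0.30 in the injury libraries. Set against *Cdh5*, the gene of VE-cadherin, *Cd34* was at -0.08 and -0.29 after sham operation and at -0.76 and -0.64 after injury, so the near-constant pair held for *Pecam1* and not for *Cdh5*. *Pecam1* itself was at 0.86 and 0.75 after sham operation and at -0.30 and -0.18 after injury, a difference of -1.04 (adjusted p = 0.0291 from limma). All 14 endothelial genes analysed had lower means after injury, and 3 were called lower, *Vwf* (-2.40), *Pecam1* and *Erg* (-0.84). Their mean was 0.64 and 0.62 in the sham libraries and -0.15 and -0.01 in the injury libraries. Lymphatic endothelial genes (6 analysed) had 3 called lower, *Mmrn1* (-1.83), *Prox1* (-1.70) and *Flt4* (-1.04), and 5 lower means and 1 higher, that of *Pdpn* (0.71, adjusted p = 0.0934 from limma). The part of endothelium in the fall of *Cd34* was not tested. *Gm16897*, an antisense gene whose exons overlap those of *Cd34*, fell as well, from 0.94 and 0.72 to -0.60 and -0.58 (difference -1.42, adjusted p = 0.0285 from limma). The library kit keeps strand, but whether the counting used it is not stated, so reads of *Cd34* and *Gm16897* may not have been told apart. Antisense genes that overlap exons of *Dpp4* and *Cd55* were not analysed here.

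**Figure D3:**
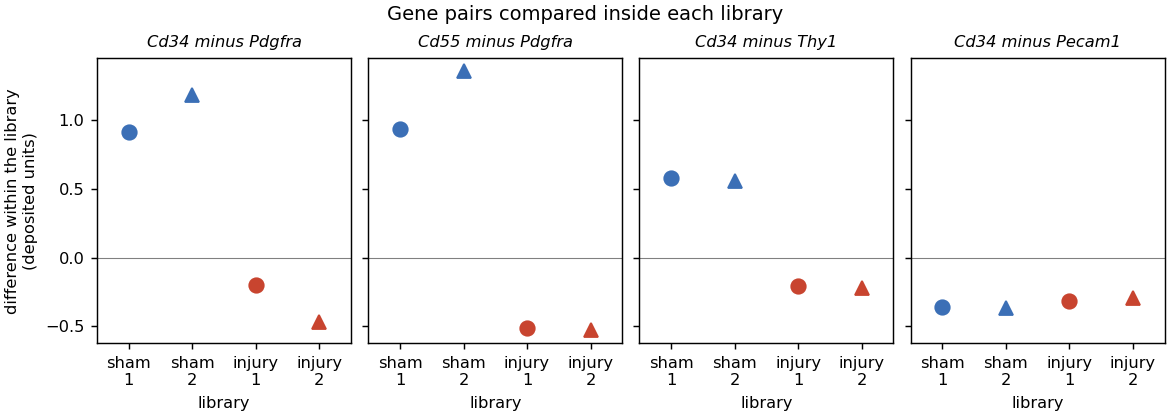
Difference between the deposited values of 2 genes inside each library (deposited units, vertical axis) for the 4 libraries (horizontal axis, sham blue, injury red, circles replicate 1, triangles replicate 2). *Cd34* minus *Pdgfra*, *Cd55* minus *Pdgfra* and *Cd34* minus *Thy1* are higher in both sham libraries than in both injury libraries. For the pairs with *Pdgfra* this follows from the single values. *Cd34* minus *Pecam1* stays between -0.37 and -0.30. How the values relate to abundance is not stated, so only changes between libraries can be read, not which gene is more abundant.

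Lists of related genes were examined for their counts, without a test of the list. Of 20 other genes of the PI16+ DPP4+ interstitial population, 4 were called lower by limma and 0 higher (none had a positive difference), and all 20 had lower means, with a median difference of -0.46. *Fndc1*, a fibronectin domain protein gene, had the lowest difference of those called (-1.57), followed by *Igfbp5*, which binds insulin-like growth factors (-1.46), the chemokine scavenging receptor gene *Ackr3* (-1.28) and the alarmin gene *Il33* (-0.80). Under a robust prior for the variance *Igfbp5* and *Il33* were not called (limma adjusted p = 0.0504 and 0.0514), and *Fndc1* lost its call under quantile normalization. *Il33* was at 0.17 and 0.28 after sham operation and at -0.72 and -0.42 after injury. In this list sham replicate 1 was above sham replicate 2 in 13 of 20 genes and injury replicate 1 below injury replicate 2 in 16 of 20.

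CD142+ stromal cells are a further population, described as holding back adipocyte formation. Of 12 of their genes, 3 were called lower, among them the flavin monooxygenase gene *Fmo2* (-2.09) and *Mgp*, the gene of an inhibitor of calcification (-1.59), with a median of -0.77 over the list. In the sham libraries *Fmo2* was at 1.45 and 1.53, and in the injury libraries it was at -0.94 and -0.26. The gene of CD142 itself, *F3*, named here because it defines the list, differed by -0.28 and was not called (adjusted p = 0.276 from limma). Genes of committed preadipocytes (15 analysed) had a median of -0.10, with 7 higher and 8 lower means. Of these only the collagen gene *Col4a1* was called (-0.69). The falls of *Sparcl1* (-1.19) and *Icam1* (-0.95) were not (limma adjusted p = 0.0875 and 0.0897). The rises of *Plin2* (0.86), *Penk* (0.80) and *Lpl* (0.65) were not called either (limma adjusted p = 0.0550, 0.0894 and 0.0953). At an adjusted p-value under 0.1 from limma, 3 genes of this list were higher and 4 lower.

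Among 21 genes shared by most fibroblasts, 5 were called lower and 1 higher, with a median of -0.56. The small proteoglycan gene *Lum* fell by 1.04 and the homeobox gene *Meox1* by 0.93. *Meox1* was not called under quantile normalization, with the columns scaled to one spread or with a robust variance prior. *Dcn*, another small proteoglycan gene, fell from 0.37 and 0.07 to -0.84 and -0.72. *S100a4*, a calcium-binding protein gene that macrophages express as well, rose from -1.29 and -1.46 to -0.07 and 0.09 (difference 1.39, adjusted p = 0.0285 from limma). Its call was lost with a variance prior that follows a trend (adjusted p = 0.0725 from limma). All 12 macrophage genes had higher means and 7 were called, among them *Ccr2* (2.30), *Fcgr1* (2.14), *Aif1* (1.78) and *Tyrobp* (1.62). The part of macrophages in the rise of *S100a4* was not tested. Genes of activated fibroblasts and myofibroblasts (18 analysed) had a median of -0.12 with 8 higher and 10 lower means. The 2 called were *Acta2* (-2.18) and *Tagln* (-2.12), contractile genes also used by vascular smooth muscle. The largest rises, of *Tgfbi* (1.08), *Thbs1* (0.98) and *Runx1* (0.93), were not called (limma adjusted p = 0.0680, 0.0899 and 0.0545). At an adjusted p-value under 0.1 from limma, 4 genes of this list were higher and 2 lower. Mural cell genes had 4 of 10 called lower, *Myh11* (-2.52), *Cnn1* (-2.36), *Cspg4* (-0.90) and *Mcam* (-0.82), and under the robust prior *Myh11* was not called (limma adjusted p = 0.0538). The part of mural cells in the *Acta2* and *Tagln* values was not tested.

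Regulators of adipocyte commitment around *Zfp423* had 2 of 18 called lower and 1 higher, with a median of -0.32. *Bmp4*, the gene of a ligand that drives progenitors towards the adipocyte, was at 0.69 and 0.81 after sham operation and at -0.82 and -0.78 after injury. The groups were wide apart and the replicates close, with a difference of -1.56 (standard error 0.14, adjusted p = 0.0285 from limma). *Zfp521*, a relative of *Zfp423* that opposes adipocyte formation, fell from 0.51 and 0.31 to -0.58 and -0.79 (difference -1.10, adjusted p = 0.0292 from limma). *Zfp423* minus *Zfp521* within a library was -0.03 and 0.24 after sham operation and 0.34 and 0.90 after injury. *Cebpb*, an early adipogenic and inflammatory transcription factor gene, rose from -0.42 and -0.59 to 0.58 and 0.74 (difference 1.17, adjusted p = 0.0285 from limma). Of the adipocyte genes, 1 of 12 was called lower, the lipid droplet gene *Plin1* (-0.74). *Retn* (-0.94) and *Adipoq* (-0.80) were not called. The list had 8 lower and 4 higher means, up to 0.49 for *Lep*, with a median of -0.50.

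Ligands and relatives of the marker proteins were measured as well. Of the PDGF genes beside *Pdgfra* (5 analysed) limma called 0, while 2 had an unadjusted p-value under 0.05, *Pdgfc* (-0.62, adjusted p = 0.0772) and *Pdgfrl* (-0.52, adjusted p = 0.138). Of 22 relatives and binding partners, 2 were called lower by limma, *Zfp521* among them. *Thy1* is also a T lymphocyte gene, and of 13 such genes 6 were analysed, *Thy1* included. *Il7r* was called higher (1.86), and *Cd2* was not (0.63, adjusted p = 0.216 from limma). *Cd3e*, *Cd3d* and *Cd3g*, which define the lineage, were not analysed here.

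**Figure D4:**
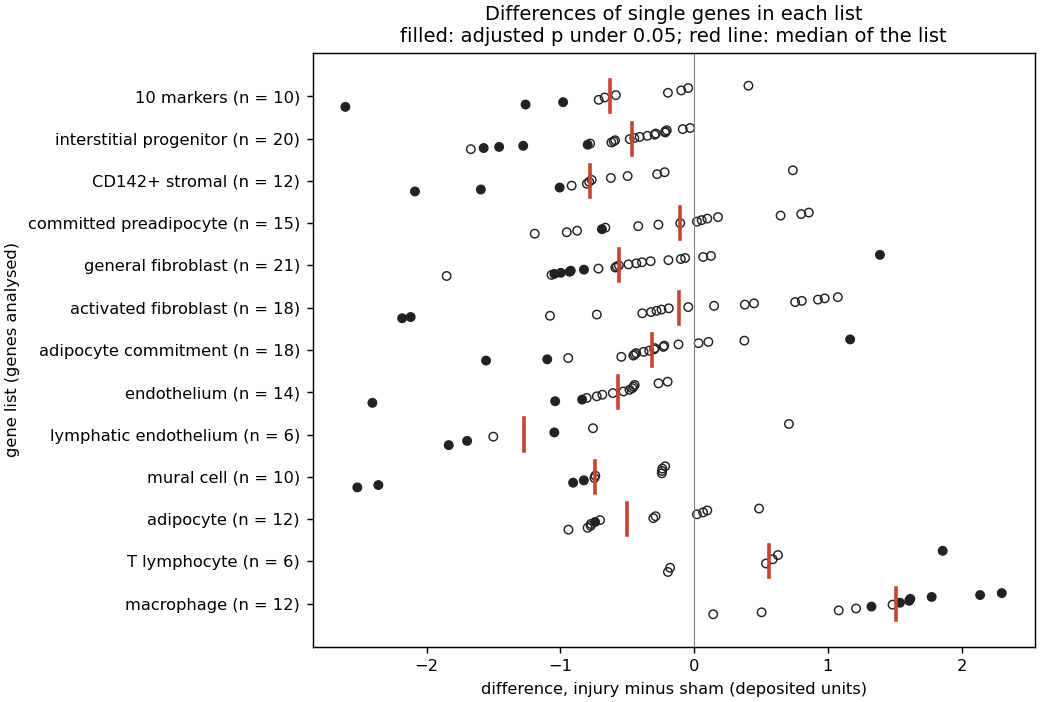
Difference between injury and sham means (deposited units, horizontal axis) for single genes of the 10 markers and 12 lists (vertical axis, with the number of genes analysed), filled where the adjusted p-value from limma was under 0.05, with a red line at the median of the list. Medians of the stromal, endothelial and mural lists lie below 0, those of the committed preadipocyte and activated fibroblast lists lie close to 0 (-0.10 and -0.12), and that of the macrophage list lies at 1.51.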

How the data were processed

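Outer tissues around the femoral artery were analysed in 2 sham and 2 injury libraries. The authors made the libraries with a kit for stranded mRNA (480 ng of RNA), and per the labels and methods used FastQC 0.11.8, cutadapt 1.18, Trimmomatic 0.39, STAR 2.6.0a on mm9, featureCounts and DESeq2 1.28.0. The deposited values are a signed log-like score, 1 per gene and library, not counts. How the authors derived and filtered it, and whether it was centred, is not given in the sources used here. Depth is unknown, so no filter on low values was applied.

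Here limma 3.58.1 in R 4.3.3 (lmFit, eBayes, group as the only term) was fitted to all 4 libraries and 12661 genes, with 2 residual and 3.48 prior degrees of freedom, and was tested on simulated data. The 10 markers, the 20 lists and the tests were chosen with earlier results of these data known, and no choice is independent of them. Genes were named by rule: all markers, up to 4 called genes of each list with the largest differences (or the leading 2 where fewer than 2 were called), and the 3 nearest profiles of *Cytl1* and *Pdgfra*. Genes that overlap or resemble a marker, the genes of the within-library pairs and some other genes of the lists were added after values were seen. Some genes that the rule names are not reported here. Coordinates come from GENCODE vM1 (NCBIM37, equal to mm9), where 92.3% of symbols were found. Alternatives were a replicate block, each library left out, other scalings, variance priors and thresholds. Python 3.11.15 with pandas 2.3.3, numpy 2.4.6 and matplotlib 3.10.9 served for summaries and plots.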

Additional observations from a re-analysis of the deposited data

How the results depend on the processing

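The 3 marker calls held under quantile normalization, scaling of the columns to one spread, a robust variance prior, a variance prior with a trend and the replicate block. With a minimum difference of 1 unit *Cd34* was not counted, and at an adjusted p-value under 0.1 *Zfp423* was. Of the fits to 4 libraries, only quantile normalization and scaling of the columns could change a difference, and no marker changed sign under them. With a library left out, limma assumes that the lone library of a group varies like the other group. The number of markers called lower was then 0 to 4, of all genes 0 to 1790 (0 to 943 higher, 0 to 847 lower), and of genes in the lists 0 to 32 higher and 0 to 60 lower. Without sham replicate 1 limma called 0 genes, with 1960 at an unadjusted p under 0.05, 3 markers among them. Without sham replicate 2 it called 1 gene, without injury replicate 1 it called 284, none of them a marker, and without injury replicate 2 it called 1790. With 1 library left out the difference of *Dpp4* ran from -0.48 to 0.39, reversed without sham replicate 1 and without injury replicate 2 (0.18), and that of *Ly6a* ran from -0.41 to 0.22, reversed without injury replicate 2. The cause was not tested.

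Among all genes 941 were called. At an adjusted p-value under 0.1 there were 2317, 1166 higher and 1151 lower, and in the lists 31 higher and 57 lower in place of 11 and 32. With a minimum difference of 1 unit there were 591, 271 of them lower. Same-numbered libraries did not deviate together (correlation -0.094 over genes), so the numbers were not taken as pairs. With the replicate block 684 were called, 303 of them lower, and 18 genes of the lists were called lower. The number called lower then went from 4 to 0 in the mural list, from 2 to 0 in the activated fibroblast list, from 5 to 1 in the general fibroblast list, and from 1 to 0 in both the committed preadipocyte and the adipocyte list. *Il33*, *Mgp*, *Erg* and *Fcgr1* lost their calls as well. Depth sets a limit that cannot be stated, and a filter on low values was not run because their relation to abundance is not stated.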

Other observations

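Other cell types were followed by fixed lists as well. Schwann cell genes had 2 of 7 called lower by limma, among them the myelin gene *Prx* (-1.45). They had 6 lower means and 1 higher, that of *S100b* (0.70, adjusted p = 0.0615 from limma). Of 2 mesothelial and epithelial genes analysed, the membrane protein gene *Gpm6a* was called lower (-1.70) and *Cdh1* (-1.54) was not. Of 7 neutrophil genes 1 was called, *Retnlg* (1.83), and all 7 had higher means. *Cxcr2* (2.20) and *Csf3r* (2.09) were not called. Among 12 proliferation genes limma called 0, with 1 at an unadjusted p under 0.05, and *Birc5* (0.62) and *Mki67* (0.51) had the largest differences. Skeletal muscle genes (6 analysed) gave 0 calls and 4 unadjusted p-values under 0.05, with *Pvalb* at 1.11 and *Mylpf* at -1.04. Of the satellite cell genes only *Vcam1* (-1.06) and *Sdc4* (0.92), both found in many other cells, were analysed, and 0 were called although both had an unadjusted p under 0.05 (2 genes).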
